A study of Mus musculus with 8 samples.

Results

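The genes described here encode the steps of cones between the visual pigment and the membrane current, and some are made by other retinal cells too. They are the transducin subunits Gnat2, Gnb3 and Gngt2, the phosphodiesterase subunits Pde6c and Pde6h, the channel subunits Cnga3 and Cngb3, the cyclase activator Guca1a and the cation exchanger Slc24a2. Members were all probe sets whose only platform gene symbol was 1 of these 9 names, which gave 10 probe sets for 8 genes among 45037 probe sets on the array. No probe set carried the symbol Cnga3, so the channel is represented here by Cngb3 alone. The mean signal of 9 probe sets, at least 1 for each of the 8 genes, lay above the floor for dim signal (a mean log2 value of 8.5), and these were tested.

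RNA of 8 mouse retina samples was measured on 8 Affymetrix arrays, 1 sample per array. The 4 control samples were of fresh dissected retina labelled as time 0 d. The other 4 were of retina described as injected, with a treatment type of compound. The labels name no compound, dose, route, interval, strain or age, and no sham injection is among the groups, so injection, compound and handling cannot be told apart. Whether the samples are separate animals is not said in the labels, so the p-values reflect the spread of these samples alone, which may be technical.

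In daylight vision a cone pigment activates transducin, whose alpha subunit releases the brake on phosphodiesterase 6. The enzyme lowers cyclic GMP, cyclic nucleotide-gated channels close, and the falling calcium lets guanylate cyclase activating proteins restore cyclic GMP. Cones and rods run this cascade with separate but related proteins, so most members have a rod partner in the same tissue.

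Array medians ran from 495 to 766 on the deposited scale, the highest being injected replicate 3. That array also had the lowest limma array weight, 0.191, against 0.646 to 1.83 on the others. The ratio of 3′ to 5′ signal of the Gapdh control probe sets, a measure of RNA integrity and labelling, was 3.36 to 4.68 in controls and 5.26 to 8.82 in injected retinas, highest in injected replicate 3 (exact two-sided permutation p = 0.0286). The same ratio for actin was 39.2 to 57.2 in controls and 43.3 to 59.7 in injected retinas (exact two-sided permutation p = 0.486). The part of this ratio in the results below was not tested. All 6 cone markers and 5 of 5 rod markers with a probe set lay above the floor. In whole-retina RNA, fewer cones and less RNA per cone cannot be told apart.

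All 9 tested probe sets of the cone cascade had a lower mean in injected than in control retina, with log2 differences from -1.14 to -0.17. Of all 27022 probe sets tested, 52.4% were lower. Guca1a, Gnat2 and Pde6h had the widest differences, whereas Gnb3, Slc24a2, Cngb3 and Pde6c differed by less than 0.28 log2 units. With limma and adjustment over all tested probe sets, 0 of the 9 passed, and the background was 0% as well. The smallest adjusted p among them was 0.587. At an unadjusted p under 0.05, 3 of the 9 were lower, against 3.33% of all probe sets. The groups did not overlap at 2 of the 9, against 2.61% of all probe sets that were lower without overlap. That count was 4 without injected replicate 1, 4 without injected replicate 4 and 4 with arrays centred on their medians. With median centring 69% of all genes were lower, against 51.5% in the main computation. The share of all probe sets without overlap was not computed for these settings, so the higher counts are not read as a result. Pde6h enters the 9 with 2 probe sets. Counted at 1 probe set per gene, 2 of the 8 genes were lower at an unadjusted limma p under 0.05, against 2.91% of all genes. By that rule 1 of the 8 was lower without overlap, against 2.66% of all genes. At 1 probe set per gene the median difference of the 8 genes was -0.32, against -0.01 over 12886 genes. Among the 9 rod partner genes (without Guca1b) 7 were lower, with a median of -0.29 by the same rule. A lower median was therefore not particular to the cone genes.

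The upstream sequences of Gnat2, Guca1a and Pde6h are shown because these 3 genes had the widest differences and have a start site in RefSeq's table (build GRCm38.p6). Each is the 250 bases before the start, 5′ to 3′ on the gene's strand. Capitals mark the letters TAATCC or their reverse complement GGATTA, the core known to be bound by CRX, a homeodomain factor of photoreceptors.
Gnat2, chr3:108092816-108093065, plus strand: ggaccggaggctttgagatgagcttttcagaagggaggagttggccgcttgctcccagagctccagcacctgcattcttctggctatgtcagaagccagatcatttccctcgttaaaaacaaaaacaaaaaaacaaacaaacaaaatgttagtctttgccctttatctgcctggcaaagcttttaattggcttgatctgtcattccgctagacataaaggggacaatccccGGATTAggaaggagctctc
Guca1a, chr17:47400607-47400856, minus strand: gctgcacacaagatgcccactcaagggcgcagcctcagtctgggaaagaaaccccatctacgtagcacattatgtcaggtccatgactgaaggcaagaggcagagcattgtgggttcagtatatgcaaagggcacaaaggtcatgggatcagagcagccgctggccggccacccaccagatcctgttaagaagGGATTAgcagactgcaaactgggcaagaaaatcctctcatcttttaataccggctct
Pde6h, chr6:136954273-136954522, plus strand: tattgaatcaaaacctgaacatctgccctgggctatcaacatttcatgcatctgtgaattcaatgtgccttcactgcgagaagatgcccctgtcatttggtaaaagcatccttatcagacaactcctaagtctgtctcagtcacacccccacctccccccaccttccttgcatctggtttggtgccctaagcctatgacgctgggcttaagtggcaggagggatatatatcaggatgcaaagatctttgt
The match begins 19 bases before the start in Gnat2 and 57 bases before it in Guca1a, and these letters are not in the window of Pde6h. The table held 5 windows for 4 of the 8 measured genes, the other being Slc24a2, whose windows have no match. Over all 32851 windows of the table, 6.25% held the letters on either strand. The motif was chosen with the expression values known, and a match is a description of the letters only.

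Gnat2 encodes the alpha subunit of cone transducin, the G protein switched on by the cone pigments. Its log2 values (probe set 1422907_at) were 15.47, 15.32, 15.28 and 15.18 in control replicates 1 to 4 and 14.88, 14.27, 13.91 and 15.04 in injected replicates 1 to 4. All 4 injected values lay below all 4 controls, and the injected arrays spread more widely, from just under the controls in replicate 4 to far below them in replicate 3. The means were 15.31 ± 0.12 and 14.53 ± 0.52 (SD, n = 4 each). The difference was -0.79 ± 0.26 (SE), an injected signal of 58.0% of control, with a limma adjusted p of 0.653, and it was -0.96 to -0.56 with 1 array left out. The exact two-sided permutation p was 0.0286, the smallest that 4 against 4 arrays can give.

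Gnb3 encodes the beta subunit of cone transducin, which bipolar cells of the ON pathway also make. Its log2 values (1449159_at) were 13.43, 13.15, 13.36 and 13.28 in controls and 13.72, 13.05, 12.33 and 13.41 in injected replicates 1 to 4. The groups overlapped: injected replicate 1 was the highest of all 8 arrays and replicate 3 the lowest. The difference was -0.17 ± 0.29 (SE, limma adjusted p = 0.871). It was 0.09 without injected replicate 3 and -0.37 without injected replicate 1, so its direction turned with 1 array left out.

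Gngt2 encodes the gamma subunit of cone transducin. Its probe set (1428733_at) lay near the floor, with log2 values of 9.01, 9.23, 8.85 and 9.23 in controls and 9.13, 8.24, 8.79 and 8.68 in injected replicates 1 to 4. Injected replicate 1 lay within the controls, the other 3 lay below them, and replicate 2 was under the floor of 8.5. The difference was -0.37 ± 0.22 (SE, limma adjusted p = 0.744), -0.22 without injected replicate 2 and -0.17 with the scaling as deposited.

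Pde6c encodes the catalytic subunit of the cone phosphodiesterase, the enzyme that breaks down cyclic GMP. Its log2 values (1450830_a_at) were 13.77, 13.38, 13.46 and 13.63 in controls and 13.35, 13.29, 12.68 and 13.83 in injected replicates 1 to 4. Injected replicate 4 was the highest of all 8 arrays and injected replicate 3 the lowest. The difference was -0.28 ± 0.25 (SE, limma adjusted p = 0.781). Without injected replicate 3 it was -0.07, and without injected replicate 4 it was -0.46.

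Pde6h encodes the small inhibitory gamma subunit of the same enzyme and was read by 2 probe sets. At 1450765_a_at the log2 values were 13.64, 13.51, 13.58 and 13.57 in controls and 13.07, 12.88, 12.88 and 13.32 in injected replicates 1 to 4. No injected array reached the controls, which spread by an SD of only 0.05. The difference was -0.54 ± 0.17 (SE, limma adjusted p = 0.626, exact two-sided permutation p = 0.0286).

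At the Pde6h probe set with the higher mean, 1450766_at, the log2 values were 14.69, 14.79, 14.88 and 14.74 in controls and 14.04, 14.23, 13.91 and 14.97 in injected replicates 1 to 4. Here 3 injected arrays lay below all controls, but replicate 4 lay above them. The difference was -0.49 ± 0.24 (SE, limma adjusted p = 0.725, exact two-sided permutation p = 0.143). The pair of Pde6h probe sets thus gave close mean differences and disagreed on injected replicate 4.

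**Figure D1:**
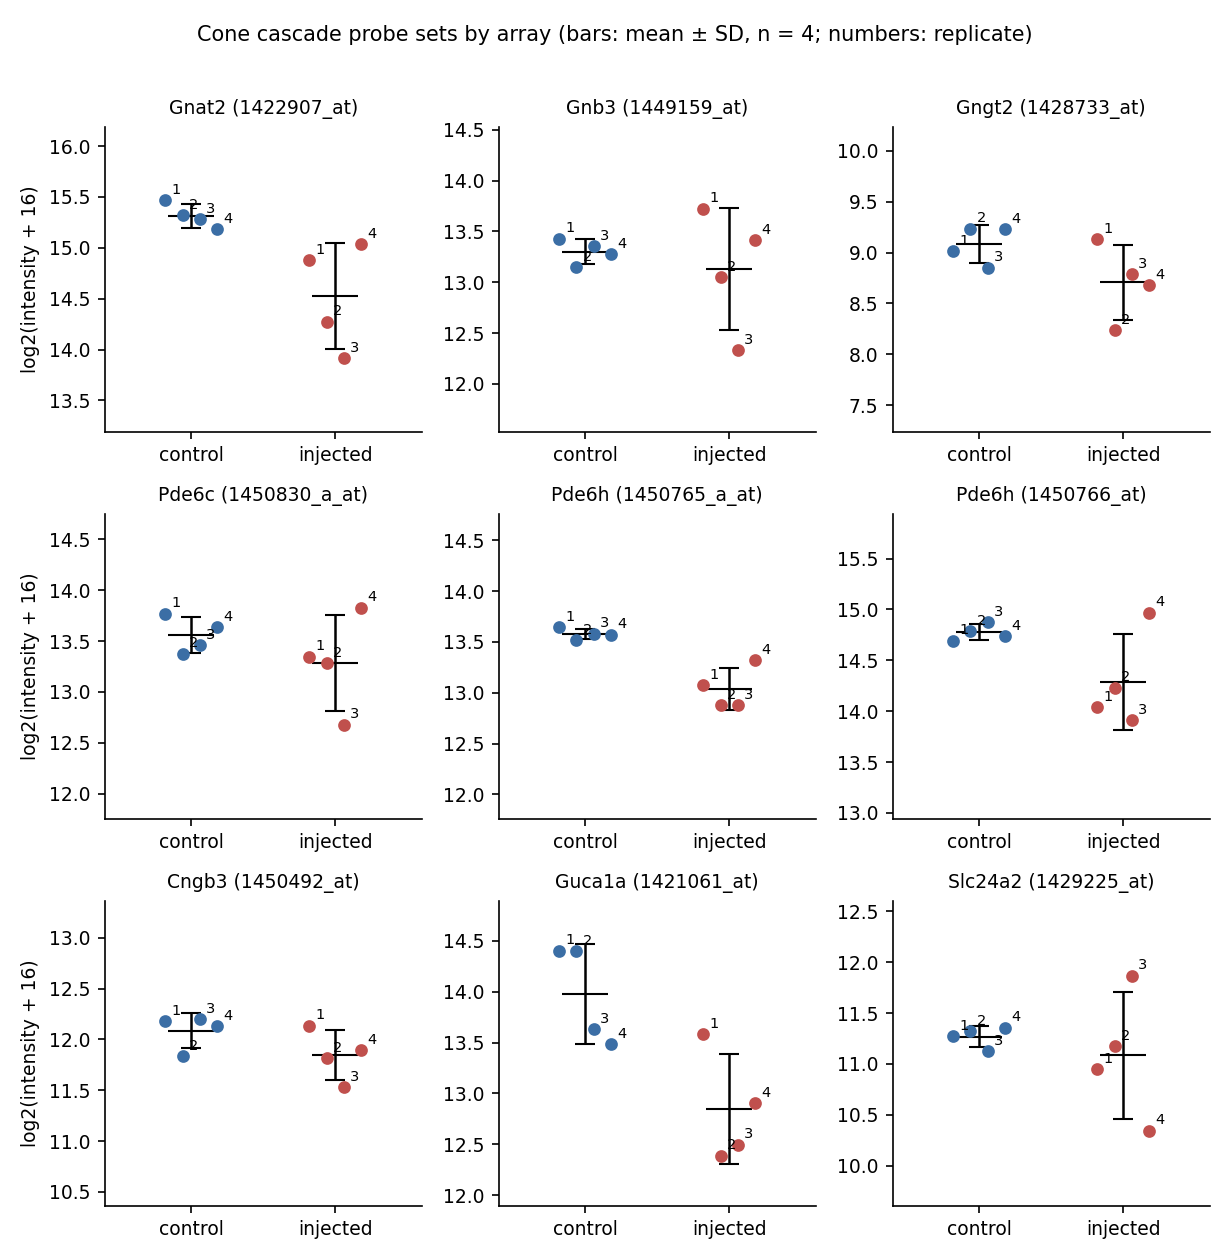
Log2(intensity + 16) of each tested cone cascade probe set on the 4 control and 4 injected arrays, with replicate numbers at the points and bars for the mean ± SD. Each panel spans 3 log2 units. Only Gnat2 and Pde6h (1450765_a_at) have all injected points below all control points.

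Cngb3 encodes the modulatory beta subunit of the cone channel, whose loss is known to cause achromatopsia. Its log2 values (1450492_at) were 12.18, 11.84, 12.20 and 12.13 in controls and 12.14, 11.82, 11.53 and 11.89 in injected replicates 1 to 4. Injected replicates 2 and 3 lay below all controls, with replicate 2 only just below control replicate 2. The difference was -0.24 ± 0.19 (SE, limma adjusted p = 0.767), with a 95% interval of -0.68 to 0.19. It was -0.14 without injected replicate 3.

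Guca1a encodes GCAP1, the calcium sensor that restarts guanylate cyclase, and rods make it as well as cones. Its log2 values (1421061_at) were 14.40, 14.40, 13.63 and 13.48 in controls and 13.58, 12.39, 12.50 and 12.91 in injected replicates 1 to 4. Control replicates 1 and 2 stood well above control replicates 3 and 4, and only injected replicate 1 reached into the control range. The means were 13.98 ± 0.49 and 12.84 ± 0.54 (SD, n = 4 each). The difference of -1.14 ± 0.33 (SE) was the widest among the members, an injected signal of 45.5% of control. It had a limma adjusted p of 0.587, and the exact two-sided permutation p was 0.0571. Leaving out each array in turn gave -1.39 to -0.98.

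Slc24a2 encodes the sodium, calcium and potassium exchanger NCKX2, which carries calcium out of cone outer segments and is also made by other retinal neurons such as ganglion cells. Its tested probe set (1429225_at) had log2 values of 11.27, 11.32, 11.13 and 11.36 in controls and 10.95, 11.17, 11.87 and 10.35 in injected replicates 1 to 4. Injected replicate 3 was the highest of the 8 arrays, the reverse of its place in most other members, and replicate 4 was the lowest. The difference was -0.19 ± 0.30 (SE, limma adjusted p = 0.865). It was 0.06 without injected replicate 4 and -0.46 without injected replicate 3.

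The second Slc24a2 probe set, 1453885_at, lay below the floor at a mean log2 value of 7.97 and was not tested. Its values were 6.86, 9.08, 7.38 and 6.72 in controls and 9.33, 7.25, 9.43 and 7.75 in injected replicates 1 to 4. High and low values fell in both groups, and the difference in means of 0.93 had the opposite sign to that of the tested probe set.

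The injected arrays were uneven when each of the 8 genes, at the probe set of highest mean signal, was set against its own control mean. The mean deviation over the 8 genes was -0.20, -0.61, -0.73 and -0.29 in injected replicates 1 to 4, while the controls ran from -0.07 to 0.11. Injected replicate 2 was below the control mean in 8 of 8 genes and replicate 3 in 7 of 8, the exception being Slc24a2. Replicates 1 and 4 were each below it in 5 of 8. Injected replicate 3 was the lowest injected array for 5 genes, and replicate 1 was the highest for 4. The members did not share 1 order of the arrays: Pde6h was lowest in replicate 3 and above control in replicate 4 (0.19), whereas Slc24a2 was highest in replicate 3 (0.60) and lowest in replicate 4 (-0.92).

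**Figure D2:**
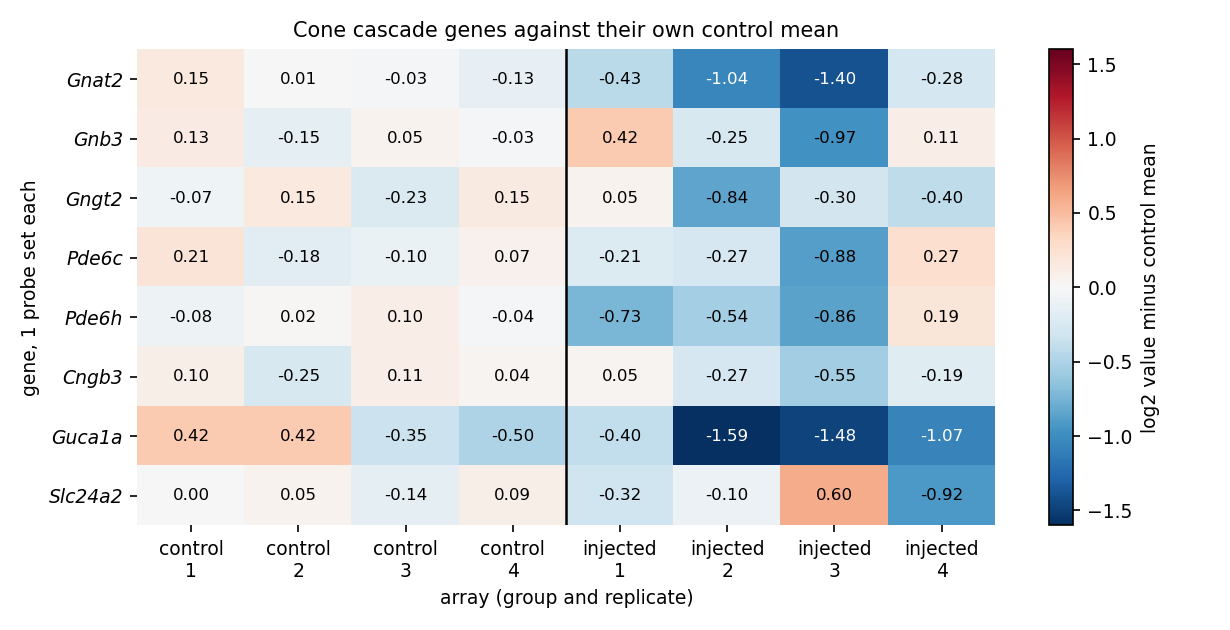
Log2 value of each cone cascade gene (1 probe set each) minus its control mean, for the 8 arrays, as colour and number. Injected replicates 2 and 3 hold the lowest values of most genes, down to -1.59 for Guca1a, while Slc24a2 stands at 0.60 in injected replicate 3.

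The arrays also differed in markers of cell types beside cones. Of 7 microglia markers 6 lay above the floor, Aif1 being below it. Their summed intensity, of all 7, was 27679 to 49263 in controls and 59658 to 156911 in injected retinas, highest in injected replicate 3. The 5 rod markers with a probe set summed to 179426 to 192200 in controls and 103829 to 194500 in injected retinas, lowest in injected replicate 3 and highest in replicate 4. Lens markers, of which Cryaa and Mip were below the floor, summed to 1090 to 15645 in controls and 4496 to 82110 in injected retinas, highest in replicate 2. For Gnb3, the 5 bipolar cell markers with a probe set summed to 79421 to 94566 in controls and 68401 to 92986 in injected retinas. For Slc24a2, the 5 ganglion cell markers summed to 109819 to 120166 and to 90821 to 107576. Pigment epithelium markers, with Best1 below the floor, summed to 93824 to 236486 in controls and 50835 to 104791 in injected retinas, and the 2 blood markers with a probe set were below the floor. The 6 Müller glia markers summed to 158431 to 169656 in controls and 129755 to 156454 in injected retinas. The groups did not overlap in the Müller glia, ganglion cell and microglia sums. A lower mean after injection was found for 5 of the 6 Müller glia markers and for all 5 rod, 5 bipolar and 5 ganglion cell markers. It was found for 5 of 7 pigment epithelium, 1 of 7 microglia and 0 of 7 lens markers. The share over all tested genes was 51.5%. The lower microglia marker was Aif1, which lay below the floor, and Rlbp1 was in both the Müller glia and pigment epithelium lists. The lens markers Crybb2 and Crygd had control means of 8.07 and 7.44 and passed the floor only through the injected arrays. Rpe65 passed it only through the controls, with an injected mean of 8.04. Of 3 muscle markers only Ckm lay above the floor, and they summed to 1209 to 1358 in controls and 838 to 1398 in injected retinas. The part of these cell types in the cone gene differences was not tested.

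Each cone gene was compared with the rod gene of the same role by taking their log2 difference within an array, which removes what moves both alike. Of the planned pairs 9 could be computed, and 0 of 9 passed an exact two-sided permutation test after Benjamini-Hochberg adjustment over the 9 pairs, the lowest adjusted value being 0.193. With 4 against 4 arrays, at least 6 of the 9 pairs would have to reach the smallest possible p together for any to pass. Unadjusted, 1 pair (Gnat2 and Gnat1) was under 0.05. The SE of a shift below comes from the pooled spread of the groups, while the SE of a single gene is limma's moderated one. With limma on the within-array differences the SE was wider for some pairs (0.20 for Gnat2 and Gnat1, 0.18 for Pde6c and Pde6b). It was narrower for others (0.36 for Slc24a2 and Slc24a1).

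Gnat2 was lower relative to Gnat1, the rod transducin alpha subunit, by 0.22, 0.25, 0.89 and 0.64 log2 units in injected replicates 1 to 4. The 4 controls stayed within 0.06 of their mean, so all injected arrays lay outside them. The mean shift was -0.50 ± 0.16 (SE, exact permutation p = 0.0286, adjusted p = 0.193). Leaving out each array in turn gave -0.59 to -0.35. Gnat1 itself differed by -0.29 ± 0.26 (SE, limma adjusted p = 0.779).

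The beta subunits stood the other way round. Gnb3 relative to Gnb1, which serves rod transducin and many other cells, shifted by 0.38 ± 0.18 (SE, exact permutation p = 0.0857, adjusted p = 0.193), positive in 3 of 4 injected arrays. Gnb1 differed by -0.55 ± 0.31, and its 2 probe sets ran from -1.09 to -0.55. With all probe sets of a gene averaged, the Gnb3 shift was 0.65. The gamma subunits gave -0.35 ± 0.23 for Gngt2 relative to Gngt1 (exact permutation p = 0.2).

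Pde6c was compared with both rod catalytic subunits, and the result had opposite signs. Relative to Pde6a it shifted by -0.49 ± 0.29 (SE, exact permutation p = 0.0857), or -0.21 without injected replicate 3. Relative to Pde6b it shifted by 0.36 ± 0.12 (exact permutation p = 0.0571). Pde6a was at 0.21 ± 0.18 and Pde6b at -0.64 ± 0.24 (SE, limma adjusted p 0.772 and 0.709), so the rod subunits themselves differed in sign.

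The inhibitory subunits differed by -0.49 for Pde6h and -0.46 for the rod subunit Pde6g, at 1 probe set each, while the 2 probe sets of Pde6g ran from -0.80 to -0.46. Their relative shift was -0.03 ± 0.18 (SE, exact permutation p = 0.857). It turned positive in 7 of the 17 alternative computations, so it has no settled direction. Cngb3 relative to Cngb1, the rod channel's modulatory subunit, shifted by -0.29 ± 0.31 (exact permutation p = 0.514), and without injected replicate 3 by less than 0.01.

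Slc24a2 relative to the rod exchanger Slc24a1 shifted by -0.17 ± 0.40 (SE, exact permutation p = 0.8), and by 0.18 without injected replicate 4. Guca1a was set against Guca1b, the other cyclase activator, which is no strict rod partner. The shift was -0.33 ± 0.38 (SE, exact permutation p = 0.486), and Guca1b on its own was at -0.80 ± 0.30 (limma adjusted p = 0.709). The 2 probe sets of Guca1b ran from -0.80 to -0.51. With all probe sets of a gene averaged, the shift was -0.48. Without injected replicate 4 the shift was -0.10.

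**Figure D3:**
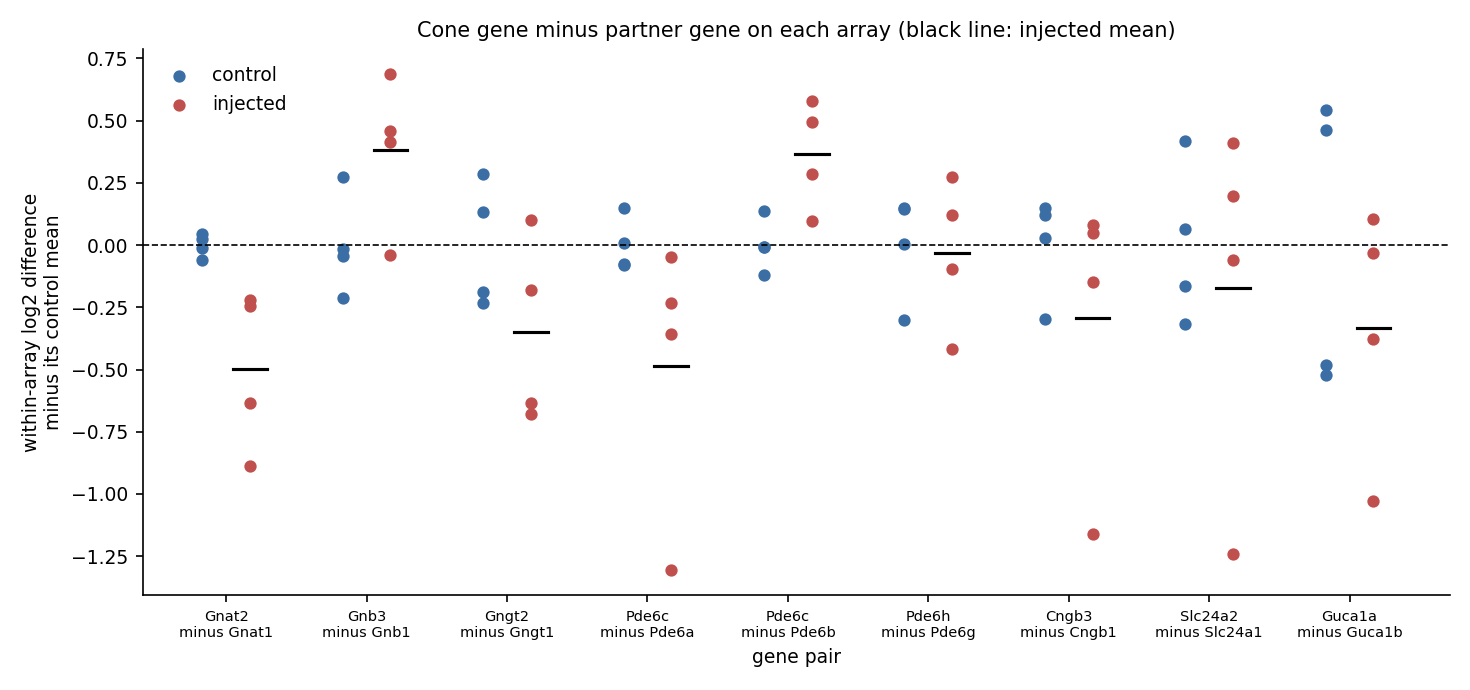
Log2 difference between a cone cascade gene and its partner on each array, minus the mean of the 4 controls, with a black line at the injected mean. For Gnat2 minus Gnat1 the 4 injected points lie below the 4 controls (mean -0.50), and in the other 8 pairs the groups overlap.

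A list of 26 phototransduction genes other than the members included the rod partners and Guca1b compared above, the cone opsins and Arr3. Its counts are therefore not independent of those genes. Of the 26, 23 were tested, and the others were not analysed here. At 1 probe set per gene 20 were lower and 3 higher in injected retina, against 51.5% of all genes lower, with a median difference of -0.30, and 0 passed after adjustment with limma. At an unadjusted p under 0.05, 7 were lower and 0 higher, against 2.91% of all genes lower. The groups did not overlap at 5, all lower and including the rod partner Pde6b, against 2.66% of all genes. Each of these counts of lower genes includes Grk1, which passed the floor only through its controls and is described below.

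Among these, the 4 genes with the smallest p and no overlap were 3 cone genes and Grk1, the kinase that phosphorylates lit pigment. The cone opsins Opn1mw and Opn1sw differed by -1.39 ± 0.33 and -2.07 ± 0.51 and cone arrestin Arr3, which caps phosphorylated pigment, by -0.77 ± 0.19 (SE, limma adjusted p 0.48, 0.517 and 0.521). The 3 probe sets of Arr3 ran from -1.52 to -0.77 and the 2 of Opn1sw from -2.07 to -1.46. Grk1 passed the floor only through its controls, at log2 values of 9.71, 9.61, 10.21 and 10.04 against 8.83, 9.29, 6.36 and 6.66 in injected replicates 1 to 4. The last 2 lie in dim signal under the floor, so its place among the smallest p and the size of its difference are not read as support. Beside these, the widest cascade member, Guca1a, was at -1.14. The difference between opsins and cascade genes was not tested.

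**Figure D4:**
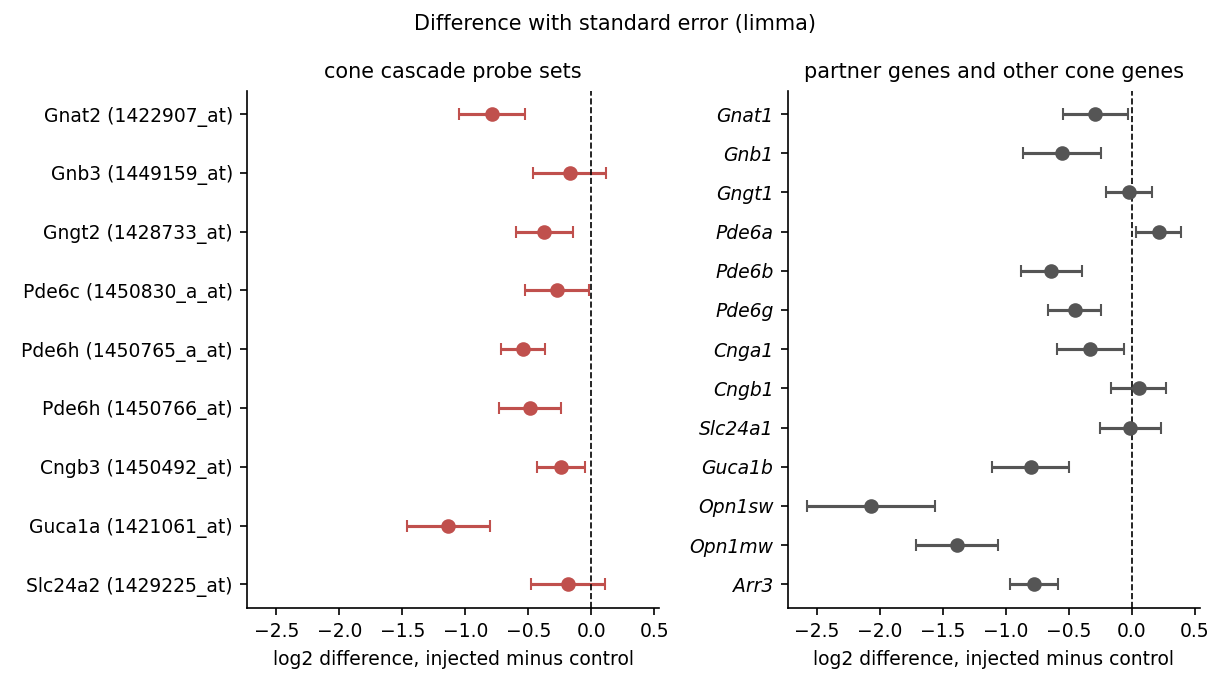
Log2 difference (injected minus control) with limma standard error for the 9 tested cone cascade probe sets (left) and for partner genes and 3 other cone genes (right). All 9 points on the left lie below 0, between -1.14 and -0.17, and Opn1sw lies lowest on the right at -2.07.

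Of 8 photoreceptor regulators, 6 were tested and 5 were lower, against 51.5% of all genes, and 0 passed with limma. Crx was the 1 regulator at an unadjusted p under 0.05 (2.91% of all genes were lower in this way) and the 1 whose groups did not overlap (2.66% of all genes). It differed by -0.45 ± 0.19 (SE). Nrl, the rod fate factor, differed by -0.56 ± 0.27, and Thrb, the thyroid hormone receptor of cone opsin patterning, by -0.17 ± 0.31 (SE, limma adjusted p from 0.711 to 0.88 for these 3). The homeodomain factor Otx2 was at -0.28 ± 0.24, the nuclear receptor Rorb at -0.30 ± 0.25 and the basic helix-loop-helix factor Neurod1 at 0.04 ± 0.17 (SE).

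The 6 other genes whose values lay nearest to the mean pattern of the 8 members over the 8 arrays were Mrpl24, Crx, Atp5b, Mtrf1l, Vtn and Jag1. Likeness was the root mean square distance of the deviations from control, 0.08 for Mrpl24 to 0.10 for Jag1, against a median of 0.50 over 12878 other genes. The members themselves lay 0.20 (Cngb3) to 0.58 (Guca1a) from their own mean, and 9.83% of the other genes lay nearer to it than the median member. Each member is part of that mean, which shortens its distance, so the share is not a like comparison. Mrpl24, a mitochondrial ribosomal protein, was at -0.17, -0.58, -0.76 and -0.22 in injected replicates 1 to 4. Crx was at -0.26, -0.61, -0.74 and -0.20.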

How the data were processed

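The values the authors deposited are linear intensities, 1 for each probe set on each array. The trimmed mean (2% left out at each end) was 2500 on every array, the mark of a global scaling. The software is not given in the sources used here. Array medians differed by 1.55 times, so the deposited intensities were quantile-normalised in limma 3.58.1 (R 4.3.3). Every log2 value is log2(intensity + 16) of the normalised form of the intensities the authors deposited, and the added 16 understates changes of dim genes. Such scaling hides a change in total RNA. The 64 array control probe sets were left out after normalisation. Probe sets at or above the 40th percentile of mean log2 value were tested (27022 of 45037). Platform annotation gave 34945 probe sets 1 symbol, 932 several and 9160 none.

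Injected and control were compared with lmFit and eBayes and adjusted by Benjamini-Hochberg (threshold 0.05) over all tested probe sets. Probe sets with the highest mean stood for genes in lists and pairs. Exact permutation tests used all 70 assignments of arrays. The fit was tested on simulated data. Members, lists and tests were chosen with earlier results of these data known. Named genes were all members, their rod partners, 3 other cone genes, the 4 smallest-p phototransduction genes without overlap, the regulators and the 6 genes most like the members. Alternatives were pseudocounts of 1 and 64, no filter, deposited or median scaling, a trended robust prior and array weights (statmod 1.5.0). Others were a replicate block, an unmoderated test, other probe set rules, leaving out arrays and, for the pairs, limma on the within-array differences. The number of arrays limits the precision. Figures used matplotlib 3.10.9 (Python 3.11.15).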

Additional observations from a re-analysis of the deposited data

How the results depend on the processing

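No cone cascade probe set passed adjustment in the main computation or in any of the 18 alternatives run for it (0 each time, smallest adjusted p 0.334). No pair passed in its 17 either. For the exact tests this says little: the smallest exact p was 0.125 with the replicate block and 0.1 with 3 against 3 arrays. Limma on the within-array differences has no such limit. Its lowest adjusted p for a pair was 0.709, adjusted over all tested probe sets and the pairs together. The exact tests were adjusted over the 9 pairs only, so their 0.193 is not comparable with it. The unadjusted limma p of that pair, Gnat2 and Gnat1, was 0.033. The median difference of the 8 genes stayed negative in its 20 alternatives, from -0.49 with arrays centred on their medians to -0.25 without 1 array. That centring moved the median of all genes to -0.17, and relative to it the members' median was -0.33, against -0.31 in the main computation. Calls over all probe sets were 7 higher and 1 lower with array weights. Leaving out 1 array gave 0 to 29 higher and 0 to 5 lower, the most without injected replicate 4, none of them a cone cascade probe set. The count of member probe sets without overlap was 2 to 4, and the share over all probe sets was computed for the main computation only. Gnb3 turned positive with array weights (0.043) and with control replicate 2 and injected replicate 3 left out together (0.040), and with 1 array left out it was -0.372 to 0.092, positive without injected replicate 3. With 1 array left out Slc24a2 was -0.458 to 0.062 and its shift relative to Slc24a1 -0.381 to 0.183, both positive without injected replicate 4. The shift of Pde6h relative to Pde6g turned positive with deposited scaling (0.0069), median centring (0.0066), averaged probe sets (0.11) and with control replicate 2 and injected replicate 3 left out (0.0016), and it was -0.13 to 0.096 when 1 array was left out, positive without control replicate 3 (0.019), control replicate 4 (0.013) or injected replicate 1 (0.096). The cause of these reversals was not tested. Whether arrays of the same replicate number belong together is not said in the labels. Deviations of same-numbered arrays correlated by -0.03 to 0.08, which cannot settle how the samples were handled. With the replicate block, Gnat2 stayed at -0.79 (adjusted p = 0.728), and the block changed no call. Signal near the floor limits Gngt2 and the untested Slc24a2 probe set.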
